A study of Rattus norvegicus with 46 samples.

Results

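The genes described here mark smooth muscle cells, pericytes and myofibroblasts, the contractile and vessel-supporting cells of connective tissue. They were taken by symbol from the deposited gene tables: Acta2, Tagln, Cnn1 and Myh11 of the contractile apparatus, and Rgs5, Notch3, Pdgfrb and Mcam, which mural cells (the smooth muscle cells and pericytes around vessels) express. These are 8 of the 23747 symbols in the tables, and all 8 were matched to transcripts and passed the filter on low counts in every fit. RNA was sequenced from the supraspinatus tendon of the rat rotator cuff and from the subacromial bursa, the thin sac over that tendon. The tendon had been cut (tenotomy), and the bursa was kept or removed in the same operation. Tissue was taken 3 or 14 days later. Control bursa and control tendon, 5 libraries each, came from rats without an operation. Operated shoulders gave bursa of either day and, for each day, tendon with the bursa intact and tendon with it removed, in 6 libraries per group. These are 8 groups and 46 libraries. The labels used here give no strain, sex or age. No label ties a library to a rat, although tendons and bursa of one rat were collected together. Library IDs place same-numbered bursa and tendon libraries of a day, or of the controls, next to each other. P-values measure the spread between libraries and treat them as independent.

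Smooth muscle cells contract through actin and myosin. Smooth muscle alpha-actin (Acta2) and transgelin (Tagln) are also made by myofibroblasts, the contractile fibroblasts of healing wounds. Smooth muscle myosin heavy chain (Myh11) and calponin (Cnn1) are more closely tied to differentiated smooth muscle. Serum response factor (Srf) and its partner myocardin (Myocd) drive many of these genes through a DNA element called the CArG box. Pericytes wrap capillaries and depend on platelet-derived growth factor B, which endothelium secretes and the receptor encoded by Pdgfrb binds. Fibroblasts carry this receptor too. Notch3, a receptor of mural cells, is switched on by Jagged ligands on neighbouring cells.

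RefSeq promoter sequence (build GRCr8) was matched for 4 of the 8 genes, namely Acta2, Cnn1, Rgs5 and Notch3. Promoters of Tagln, Myh11, Pdgfrb and Mcam were not used here. The window of 250 bases before to 50 after the start was searched on both strands for the CArG box, which is 10 bases long (a pair of C, then 6 bases of A or T, then a pair of G), and for GTGGGAA, a core of the motif bound by the Notch partner RBPJ. The Acta2 window held no exact CArG box and 2 sites with 1 mismatch, and none of the other windows held any of the motifs searched. Of 33469 promoters of the same length, 1.64% held an exact CArG box, 21.3% held a site with at most 1 mismatch and 6.29% held GTGGGAA. The 250 bases before the start are shown for Acta2, the only one of the 4 with a match, with both sites in capitals, and for Cnn1, a contractile gene whose window had none. Both are written 5′ to 3′ on the strand of the gene. Acta2 lies on the minus strand (chr1:241172504-241172753) and Cnn1 on the plus strand (chr8:28908187-28908436).
Acta2: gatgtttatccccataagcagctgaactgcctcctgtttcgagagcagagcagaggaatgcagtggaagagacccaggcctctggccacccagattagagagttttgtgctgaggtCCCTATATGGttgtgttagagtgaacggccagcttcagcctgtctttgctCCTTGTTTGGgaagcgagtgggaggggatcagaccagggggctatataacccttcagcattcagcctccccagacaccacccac
Cnn1: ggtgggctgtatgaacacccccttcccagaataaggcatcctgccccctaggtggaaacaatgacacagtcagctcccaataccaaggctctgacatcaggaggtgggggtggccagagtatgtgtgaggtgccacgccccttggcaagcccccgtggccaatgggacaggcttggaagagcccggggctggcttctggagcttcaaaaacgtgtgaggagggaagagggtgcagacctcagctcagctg
The site nearer the start in Acta2 (CCTTGTTTGG) spanned positions -84 to -75 and the other (CCCTATATGG) positions -134 to -125, counted from the base before the start as -1. A match of letters is a description and not evidence of binding.

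Library totals ran from 12425823 to 22615613 estimated counts, except for 1 day 14 bursa with 69947597, so counting error was small. The least abundant member, Cnn1, had 102 to 4006 counts in a library. Tendon markers matched the labels: tenomodulin (Tnmd) was at 158 to 435 CPM (counts-per-million, the scale of all levels given here) in control tendon and at 1.79 to 46.7 CPM in control bursa. The 9 measured skeletal muscle genes summed to 38360 to 62150 CPM in control tendons, 2175 to 23960 CPM in the 24 injured tendons and 4.49 to 20910 CPM in the bursae. Control bursae 1 and 2 stood apart from the other control bursae, with a summed fibroblast and tendon cell level of 2049 and 1585 CPM against 9739 to 16190 CPM, and an adipocyte level of 15870 and 15040 CPM against 5458 to 7775 CPM. Calls below are from edgeR's quasi-likelihood test with Benjamini-Hochberg adjustment over all features tested, at an adjusted p under 0.05. Differences are log2 values with their standard error (SE), and CPM are after TMM scaling. In whole tissue, fewer cells of a type and less RNA per cell cannot be told apart.

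In the bursa at day 3 the contractile genes and Mcam were lower than in control bursa, while Pdgfrb was higher and Rgs5 was not called. Of the 8 members, 5 fell and 1 rose, and 46.3% of all 16277 features tested were called in this comparison (22.2% higher, 24% lower). The median log2 difference of the members was -0.68, and that of all features was -0.06. Myh11 showed the largest fall. Its level was 630.5, 959, 832.5, 1623 and 1380 CPM in control bursae 1 to 5, and its lowest, median and highest values at day 3 were 193, 327.5 and 579 CPM. The highest day 3 library lay below the lowest control, and Myh11 fell 3.09-fold (log2 difference -1.63, SE 0.31, adjusted p = 0.00055 by edgeR).

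The other contractile genes fell less, and their groups overlapped. Acta2 stood at 393, 644, 522, 937 and 847 CPM in control bursae 1 to 5, and at 333, 378 and 507 CPM (lowest, median and highest) at day 3. Control bursa 1 lay among the day 3 libraries, and the log2 difference was -0.74 (SE 0.22, adjusted p = 0.012 by edgeR). Tagln went from 326, 574, 424, 780.0 and 807 CPM in control bursae 1 to 5 to 298, 376 and 485 CPM at day 3 (log2 difference -0.62, SE 0.22, adjusted p = 0.031 by edgeR). Its call was lost without control bursa 4 (-0.49) or 5 (-0.48), without day 3 bursa 3 (-0.56) or 4 (-0.57), and with only these groups in the fit (-0.63), over a range of adjusted p from 0.0061 to 0.11. Cnn1 had 32.6, 59.7, 42.3, 83.3 and 79.2 CPM in control bursae 1 to 5 and 21.4, 27.7 and 44.7 CPM at day 3. It fell by 0.91 on the log2 scale (SE 0.30, adjusted p = 0.022 by edgeR), a call that was lost without control bursa 4 (-0.76) or 5 (-0.79), with adjusted p from 0.0064 to 0.059 over all alternatives.

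Among the mural genes of the day 3 bursa, receptor and adhesion molecule moved in opposite directions. Pdgfrb, the receptor for platelet-derived growth factor B, was at 83.9, 104, 147, 198 and 167 CPM in control bursae 1 to 5. Its lowest, median and highest values at day 3 were 232, 291 and 339 CPM, so every day 3 library exceeded every control, and Pdgfrb rose 2.07-fold (log2 difference 1.05, SE 0.19, adjusted p = 0.00033 by edgeR). Mcam, a cell adhesion molecule of mural and endothelial cells, was at 189, 301, 521, 489 and 505 CPM in control bursae 1 to 5 and at 177, 207 and 287.5 CPM at day 3. The first control bursa lay among the day 3 libraries, and Mcam fell by 0.86 on the log2 scale (SE 0.22, adjusted p = 0.0054 by edgeR). Rgs5, a regulator of G protein signalling found in pericytes, was at 181, 210.5, 235, 195 and 234 CPM in control bursae 1 to 5 and at 164, 196 and 228 CPM at day 3 (log2 difference -0.08, 95% interval -0.35 to 0.18). Notch3 was at 157, 180.1, 245, 299.8 and 268.5 CPM in control bursae 1 to 5 and at 145, 190.3 and 230.1 CPM at day 3. Its log2 difference of -0.29 (SE 0.17, adjusted p = 0.18 by edgeR) did not pass, but it did without control bursae 1 and 2 (-0.50), with adjusted p from 0.019 to 0.43 over all alternatives.

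**Figure D1:**
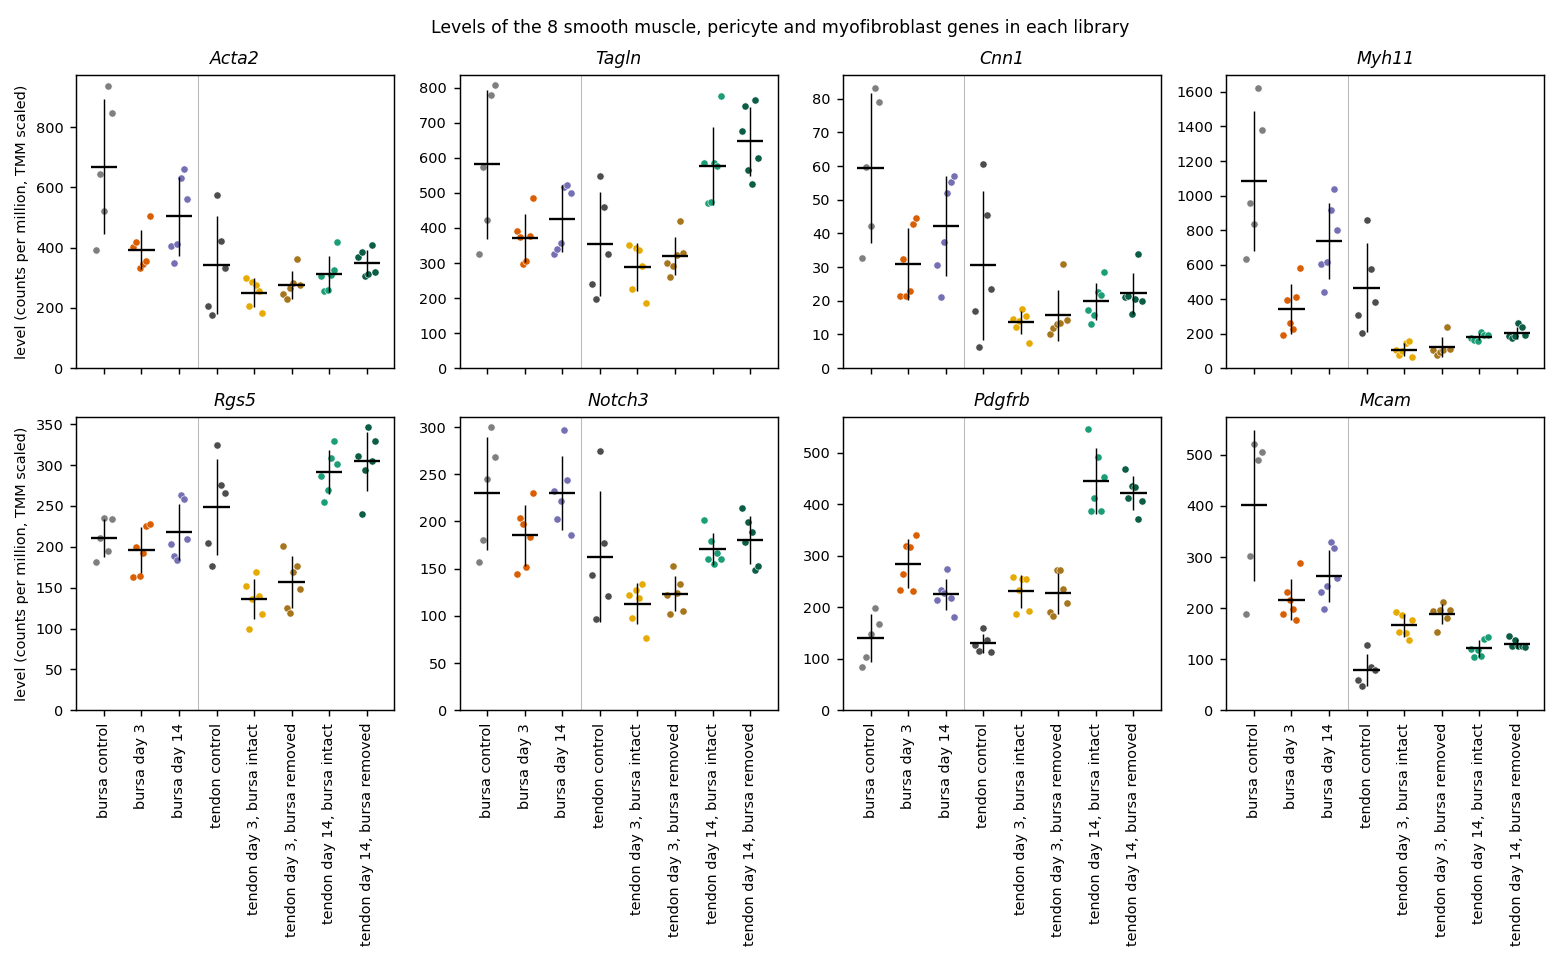
Level of each gene (y axis, TMM-scaled counts-per-million, linear from 0) in every library (points), by group (x axis), with the mean (horizontal bar) and SD (vertical bar) of 5 or 6 libraries. Myh11 is lower in injured tendons of both days than its control mean of 465 CPM, while Pdgfrb reaches means of 446 and 421 CPM in day 14 tendons.

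At day 14 the bursa differed less from control. Only Pdgfrb was called among the members, against 16.2% of all features (9.38% higher, 6.86% lower). Pdgfrb stood at 181, 223 and 275 CPM (lowest, median and highest) and was 1.59-fold higher than control (log2 difference 0.67, SE 0.19, adjusted p = 0.024 by edgeR). Control bursa 4 overlapped the day 14 libraries. The call was lost without control bursa 2 (0.58), without day 14 bursa 4 (0.61), without control bursae 1 and 2 together (0.39) and with only these groups in the fit (0.67), with adjusted p from 0.0041 to 0.11. Mcam, at 198.5, 252 and 330.1 CPM, had a log2 difference of -0.62 (SE 0.22, adjusted p = 0.07 by edgeR). It passed with DESeq2 (-0.63), without control bursa 1 (-0.79) and without control bursae 1 and 2 (-0.95), with adjusted p from 0.0022 to 0.17. The 4 contractile genes had log2 differences from -0.58 (Myh11) to -0.42 (Acta2), none called. Rgs5 (0.03, 95% interval -0.24 to 0.29) and Notch3 (-0.02, -0.38 to 0.35) were not called either. Between the injured bursae, Myh11 was higher at day 14 (439.6, 709 and 1037 CPM) than at day 3 by 1.05 on the log2 scale (SE 0.30, adjusted p = 0.019 by edgeR). It was the only member called there, against 21.6% of all features (9.44% higher, 12.2% lower). Pdgfrb had a log2 difference of -0.38 (95% interval -0.76 to 0.00, adjusted p = 0.14 by edgeR). It passed with only these groups in the fit (-0.38) and in the authors' deposited table (-0.37), with adjusted p from 0.013 to 0.24 over the alternatives. The other differences between the injured bursae were 0.31 for Acta2 (-0.13 to 0.76), 0.16 for Tagln (-0.30 to 0.61), 0.41 for Cnn1 (-0.21 to 1.03), 0.11 for Rgs5 (-0.14 to 0.36), 0.27 for Notch3 (-0.08 to 0.62) and 0.24 for Mcam (-0.22 to 0.70), none called.

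In tendon at day 3 with the bursa intact, 5 members were lower than in control tendon and 2 were higher, in a comparison where 65.6% of all 16337 features were called (32.6% higher, 33% lower). The median log2 difference was -0.53 for the members and -0.01 for all features. Myh11 again showed the largest fall. It was at 308, 204, 857, 577 and 381 CPM in control tendons 1 to 5 and at 65.9, 103 and 159 CPM (lowest, median and highest) at day 3 with the bursa intact. These groups did not overlap, and Myh11 fell 4.43-fold (log2 difference -2.15, SE 0.30, adjusted p = 5.3e-07 by edgeR). With the bursa removed Myh11 stood at 75.8, 106 and 241 CPM at day 3. The highest of these libraries, number 5, lay above control tendon 2, and the fall was 3.88-fold (log2 difference -1.96, SE 0.30, adjusted p = 2.5e-06 by edgeR). The control tendons are shared by all tendon comparisons against control. Control tendon 3 had the highest level of all 8 members among the controls, and control tendon 2 the lowest of all but Pdgfrb. The summed level of 14 endothelial genes was also highest in control tendon 3 (1716 CPM) and lowest in control tendon 2 (793 CPM), and its part in these differences was not tested.

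Calponin followed Myh11 in direction, and actin and transgelin were closer to control. Cnn1 was at 16.9, 6.22, 60.5, 45.6 and 23.4 CPM in control tendons 1 to 5, at 7.59, 14.4 and 17.6 CPM at day 3 with the bursa intact, and at 10.2, 13.2 and 31.1 CPM with it removed. Control tendon 2 lay below all injured libraries, while control tendons 3 and 4 lay above them. Cnn1 fell by 1.20 on the log2 scale with the bursa intact (SE 0.37, adjusted p = 0.0058 by edgeR) and by 0.99 with it removed (SE 0.37, adjusted p = 0.022 by edgeR). The latter call was lost without control tendon 3 (-0.60) or 4 (-0.83) and in the authors' deposited table (-0.97), with adjusted p from 0.001 to 0.29. Acta2 was at 206, 176, 574, 422.5 and 332 CPM in control tendons 1 to 5. At day 3 its lowest, median and highest values were 182, 266 and 300.1 CPM with the bursa intact and 230.1, 271 and 363 CPM with it removed. Acta2 fell by 0.49 with the bursa intact (SE 0.21, adjusted p = 0.043 by edgeR), but 11 of 19 alternatives ended this call, among them leaving out control tendon 3 (-0.25) or 4 (-0.43) or day 3 library 2 (-0.44), 5 (-0.50) or 6 (-0.41), and adjusted p ranged from 0.0027 to 0.39. With the bursa removed the difference was -0.34 (95% interval -0.77 to 0.10). Tagln, at 239, 197, 548, 458.5 and 326 CPM in control tendons 1 to 5, was not called at day 3 (log2 difference -0.33, 95% interval -0.76 to 0.09 with the bursa intact, and -0.18, -0.60 to 0.25, with it removed). Without control tendon 1 or 2, Tagln passed with the bursa intact (-0.48 and -0.52, adjusted p from 0.022 to 0.62 over the alternatives) and Acta2 with it removed (-0.50 and -0.53, adjusted p from 0.019 to 0.70).

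The mural genes of the day 3 tendon split in the same comparison, with Rgs5 and Notch3 lower and Pdgfrb and Mcam higher. Rgs5 was at 205, 177, 324, 275 and 266 CPM in control tendons 1 to 5 and at 99.8, 138 and 169 CPM at day 3 with the bursa intact. The groups did not overlap, and Rgs5 fell by 0.92 on the log2 scale (SE 0.15, adjusted p = 4.5e-06 by edgeR). With the bursa removed it stood at 119, 159 and 201.5 CPM and fell by 0.70 (SE 0.15, adjusted p = 0.00017 by edgeR). Mcam was at 59.0, 47.2, 129, 84.4 and 79.1 CPM in control tendons 1 to 5, and at 137, 165 and 193 CPM at day 3 with the bursa intact. Every day 3 library exceeded every control, and Mcam rose 2.03-fold (log2 difference 1.02, SE 0.16, adjusted p = 3.7e-06 by edgeR). With the bursa removed (153, 195 and 212 CPM) it rose 2.31-fold (log2 difference 1.21, SE 0.16, adjusted p = 3.6e-07 by edgeR).

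Pdgfrb was at 126.5, 114.5, 159.5, 136 and 113 CPM in control tendons 1 to 5. At day 3 it was at 187.5, 245 and 259 CPM with the bursa intact and at 182, 222 and 272.5 CPM with it removed. All 12 injured libraries lay above all controls, and Pdgfrb rose by 0.79 (SE 0.12, adjusted p = 2.4e-06 by edgeR) and 0.77 (SE 0.12, adjusted p = 3.9e-06 by edgeR) on the log2 scale. Notch3 was at 143, 97.1, 275, 177 and 121 CPM in control tendons 1 to 5, at 76.1, 121 and 134 CPM at day 3 with the bursa intact and at 102, 123 and 153 CPM with it removed. Its fall of 0.57 with the bursa intact (SE 0.18, adjusted p = 0.0076 by edgeR) was lost without control tendon 3 (-0.33) and with only these groups in the fit (-0.54), with adjusted p from 0.00046 to 0.31. Its fall of 0.43 with the bursa removed (SE 0.18, adjusted p = 0.041 by edgeR) was lost in 11 of 19 alternatives, among them without control tendon 3 (-0.18) or 4 (-0.42) or day 3 library 2 (-0.38), 4 (-0.43) or 6 (-0.39), with adjusted p from 0.0039 to 0.41. In the comparison with the bursa removed, 4 members fell and 2 rose, against 62.9% of all features called (30.8% higher, 32.2% lower).

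**Figure D2:**
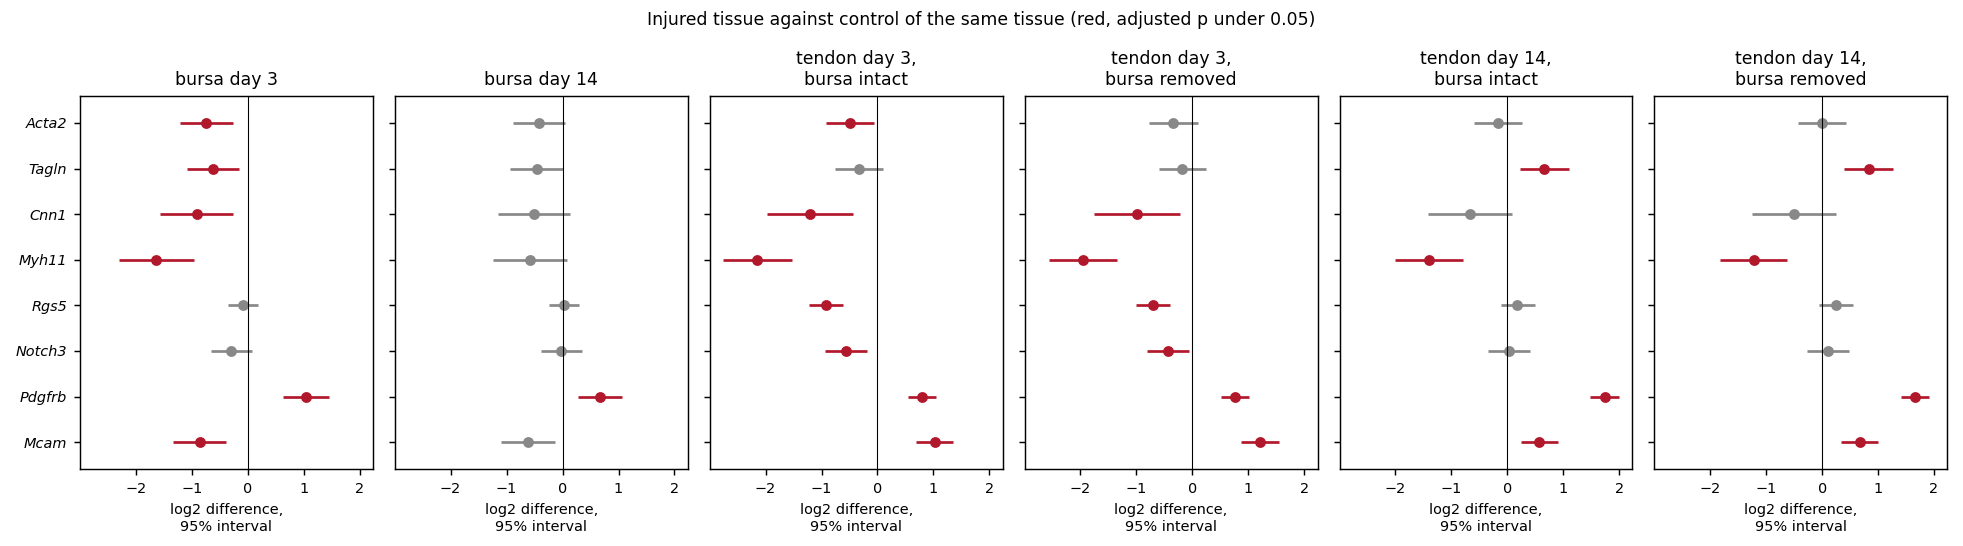
Log2 difference (x axis) of each gene (y axis) between injured and control libraries of the same tissue, as a point with its 95% interval, in red where the adjusted p was under 0.05. Myh11 lies left of 0 in all 6 panels and Pdgfrb right of 0 in all 6, and Mcam lies left of 0 in both bursa panels and right of 0 in all 4 tendon panels.

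By day 14 the tendon pattern had changed, with 3 members higher than control and 1 lower in each arm, against 66.2% of all features called with the bursa intact (33.8% higher, 32.4% lower) and 65.2% with it removed (33.2% higher, 32.1% lower). The median log2 difference of the members was 0.10 with the bursa intact and 0.18 with it removed, and that of all features 0.02 and 0.01. Pdgfrb had the largest rise. It was at 386, 431.5 and 546 CPM with the bursa intact and at 372, 423 and 468 CPM with it removed. These levels were above all controls and all day 3 tendons, and the rise over control was 3.33-fold (log2 difference 1.74, SE 0.13, adjusted p = 5.1e-12 by edgeR) and 3.15-fold (log2 difference 1.66, SE 0.13, adjusted p = 1.4e-11 by edgeR). Mcam remained above control at 104, 119 and 144 CPM with the bursa intact (log2 difference 0.57, SE 0.16, adjusted p = 0.0029 by edgeR) and at 124, 125 and 146 CPM with it removed (log2 difference 0.67, SE 0.16, adjusted p = 0.00068 by edgeR), although control tendon 3 overlapped both groups.

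Transgelin and myosin lay on opposite sides of control at day 14. Tagln was at 470.3, 580.0 and 775.5 CPM with the bursa intact and at 525.5, 638 and 764 CPM with it removed. Only control tendon 3 reached these ranges, and Tagln rose by 0.66 (SE 0.21, adjusted p = 0.0067 by edgeR) and 0.83 (SE 0.21, adjusted p = 0.0012 by edgeR) on the log2 scale. Myh11 was at 159, 182.5 and 211 CPM with the bursa intact and at 173.5, 189 and 261 CPM with it removed, and 4 of the 5 control tendons lay above all 12 libraries. It fell by 1.40 (SE 0.29, adjusted p = 0.00015 by edgeR) and by 1.22 (SE 0.29, adjusted p = 0.00068 by edgeR). Acta2 (-0.17, 95% interval -0.60 to 0.26, and -0.01, -0.44 to 0.42), Cnn1 (-0.66, -1.42 to 0.09, and -0.50, -1.26 to 0.25), Rgs5 (0.18, -0.12 to 0.49, and 0.25, -0.06 to 0.55) and Notch3 (0.03, -0.35 to 0.40, and 0.11, -0.27 to 0.48) were not called in either arm. Cnn1 passed in both arms without control tendon 2 (-0.95 and -0.78, adjusted p from 0.01 to 0.83 over the alternatives), and Notch3 with the bursa removed without control tendon 3 (0.37, adjusted p from 0.04 to 0.98). With the skeletal muscle level as a covariate, whose range did not overlap between control and injured tendons, the day 14 differences were 0.57 and 0.75 for Tagln, -1.09 and -0.97 for Myh11 and 0.38 and 0.52 for Mcam with the bursa intact and removed. None of these 6 was called, over alternatives whose adjusted p ran from 1.8e-06 to 0.27 for the 3 genes. With the covariate the adjusted p by edgeR was 0.23 and 0.062 for Tagln, 0.11 and 0.088 for Myh11, and 0.27 and 0.077 for Mcam. The Pdgfrb calls at day 14 held with it, and Rgs5 with the bursa removed gained a call (0.53, adjusted p over the alternatives from 0.039 to 0.46). At day 3 with the bursa intact the covariate ended the calls of Acta2 (-0.66), Cnn1 (-1.33), Rgs5 (-0.50), Notch3 (-0.52) and Pdgfrb (0.60), with adjusted p up to 0.39 over the alternatives, and with the bursa removed those of Cnn1 (-1.10), Rgs5 (-0.34) and Notch3 (-0.39), with adjusted p up to 0.41. The day 3 calls of Myh11 and Mcam in both arms, and of Pdgfrb with the bursa removed, held with the covariate. That of Pdgfrb with the bursa intact was lost at an adjusted p of 0.055 by edgeR. Muscle content and injury cannot be told apart in these libraries.

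Between day 3 and day 14 in tendon, 5 members rose and 1 fell in each arm, against 43.1% of all features with the bursa intact (21.3% higher, 21.7% lower) and 45% with it removed (22.4% higher, 22.6% lower). With the bursa intact Rgs5 rose 2.14-fold, from a median of 138 to 294 CPM (log2 difference 1.10, SE 0.14, adjusted p = 5.1e-07 by edgeR). Tagln rose 2.00-fold (log2 difference 1.00, SE 0.20, adjusted p = 0.00018 by edgeR), Pdgfrb 1.93-fold (0.95, SE 0.12, adjusted p = 1.8e-07 by edgeR) and Notch3 1.51-fold (0.60, SE 0.17, adjusted p = 0.0068 by edgeR). The day 3 and day 14 libraries of these 4 genes did not overlap with the bursa intact. With the bursa removed the log2 differences were 0.95 for Rgs5, 1.00 for Tagln, 0.88 for Pdgfrb and 0.54 for Notch3. Mcam fell from day 3 to day 14, by 0.45 with the bursa intact (SE 0.15, adjusted p = 0.017 by edgeR) and by 0.54 with it removed (SE 0.15, adjusted p = 0.0046 by edgeR). The former call was lost without day 14 library 2 or 4 (-0.39 each), with adjusted p from 0.00031 to 0.051. Myh11 rose by 0.75 (SE 0.28, adjusted p = 0.033 by edgeR) and by 0.74 (SE 0.28, adjusted p = 0.034 by edgeR). These calls were lost in 7 and 8 of 20 alternatives. Over all alternatives the differences ran from 0.63 to 1.04 and adjusted p from 0.00022 to 0.083. Leaving out day 3 library 1, 2, 3 or 6, or day 14 library 4, ended the call in either arm, as did day 14 library 6 with the bursa intact and day 3 library 4 or day 14 library 5 with it removed.

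Acta2 and Cnn1 were not called between the days. Acta2 differed by 0.32 with the bursa intact (95% interval -0.10 to 0.73) and by 0.33 with it removed (-0.09 to 0.74), and Cnn1 by 0.54 (-0.19 to 1.27) and 0.49 (-0.24 to 1.22). By the authors' deposited tables an adjusted p under 0.05 was reached by 7 members in each arm, with Cnn1 added where the bursa was intact (0.56) and Acta2 where it was removed (0.33). With only the compared groups in the fit both also passed, at 0.54 and 0.32. Over the alternatives adjusted p ran from 0.018 to 0.41 for Cnn1 with the bursa intact, and from 0.016 to 0.31 for Acta2 and 0.012 to 0.48 for Cnn1 with it removed.

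The study's main question was whether taking out the bursa alters the tendon's response. No member was called between bursa removed and bursa intact at day 3 or at day 14, and edgeR called 0% of all 16337 features in each. Libraries were left unpaired in this fit, and a block by replicate number changed no member call. At an unadjusted p under 0.05 in this edgeR fit there were 1254 features at day 3 and 200 at day 14, none of them a member. DESeq2 called 10 features at day 3 and 1 at day 14, again no member. The estimates at day 3 were 0.15 for Acta2 (95% interval -0.26 to 0.57), 0.16 for Tagln (-0.25 to 0.56), 0.21 for Cnn1 (-0.52 to 0.95) and 0.19 for Myh11 (-0.38 to 0.77). They were 0.22 for Rgs5 (-0.08 to 0.51), 0.14 for Notch3 (-0.22 to 0.50), -0.02 for Pdgfrb (-0.25 to 0.22) and 0.19 for Mcam (-0.12 to 0.50). At day 14 they lay between -0.08 (Pdgfrb, -0.32 to 0.15) and 0.18 (Myh11, -0.39 to 0.76). These intervals rest on the spread of all tendon groups, control tendons included. Myh11 had an SD of 258 CPM in control tendons, and of 20.4 and 34.8 CPM at day 14 with the bursa intact and removed. The authors' deposited table gave the same Myh11 difference at day 14 (0.18) with an SE of 0.063, against 0.28 in the edgeR fit. Positive estimates were 7 of 8 at each day, and the members vary together between libraries, so these are not separate observations. The difference of the removal effect between the days was also not called for any member (estimates -0.15 to 0.01, 0% of features called, 244 features at an unadjusted p under 0.05, none a member; DESeq2 called no feature). In simulated counts of the day 14 comparison, with independent libraries, 81 of 100 planted 2-fold changes were found. Changes as small as the member estimates were not planted, so the simulation does not tell how often those would be found. The widest interval was that of Cnn1 at day 3, which reached a log2 difference of 0.95.

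**Figure D3:**
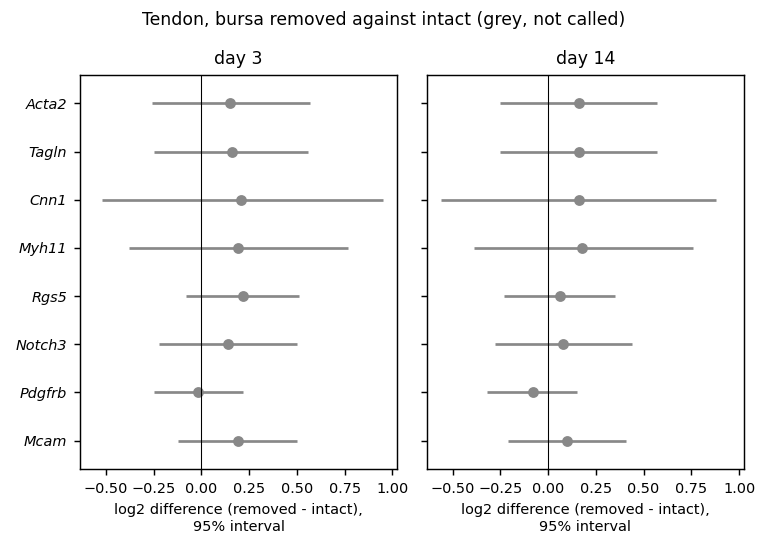
Log2 difference between tendons with the bursa removed and intact (x axis) for each gene (y axis), as a point with its 95% interval, at day 3 and day 14. Every interval includes 0, and those of Pdgfrb (-0.25 to 0.22 and -0.32 to 0.15) are the narrowest.

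In the authors' deposited table for day 3, removed against intact tendons had log2 fold changes between -0.00437 (Pdgfrb) and 0.219 (Rgs5), and the lowest adjusted p of a member in the authors' deposited table was 0.302 (Mcam). At day 14 every member had an adjusted p of 0.9997 in the authors' deposited DESeq2 table. This included Myh11 (0.180, SE 0.063) and Acta2 (0.178, SE 0.092), and the unadjusted p-values of that table are not given here.

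Control tissues differed in most members, and the injury response of several members differed between tissues. Control bursa was higher than control tendon for 6 members, against 51.3% of 17205 features called (29.2% higher, 22% lower). Mcam differed most, 5.01-fold higher in bursa without overlap (log2 difference 2.33, SE 0.21, adjusted p = 3.7e-12 by edgeR). Myh11 was higher by 1.22 (SE 0.32, adjusted p = 0.0016 by edgeR), Acta2 by 0.96 (SE 0.23, adjusted p = 0.00051 by edgeR) and Tagln by 0.71 (SE 0.23, adjusted p = 0.0079 by edgeR). Cnn1 (0.96, adjusted p = 0.027 by edgeR) and Notch3 (0.50, adjusted p = 0.026 by edgeR) each lost the call in 5 of 15 alternatives, namely without control bursa 4 or 5 or control tendon 1, 2 or 5, with adjusted p up to 0.11. Rgs5 (-0.24, 95% interval -0.54 to 0.06) and Pdgfrb (0.10, -0.21 to 0.42) were not called, though Pdgfrb was without control bursae 1 and 2 (0.38, adjusted p over alternatives from 0.03 to 0.88). In order of mean CPM, Acta2, Myh11, Cnn1 and Mcam were highest in control bursa, Tagln in day 14 tendon with the bursa removed (647), Rgs5 in the same group (304.5), Notch3 in day 14 bursa (230.3) next to control bursa (230.0), and Pdgfrb in day 14 tendon with the bursa intact (446). The 2 groups at the top for Notch3 did not differ beyond their spread (log2 difference -0.02, 95% interval -0.38 to 0.35), nor did the 2 day 14 tendon groups for Pdgfrb, Rgs5 or Tagln.

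The difference of the responses was tested in one fit over all libraries. At day 3 the bursa's change exceeded the tendon's by 0.77 for Rgs5 (SE 0.20, adjusted p = 0.0038 by edgeR) (Rgs5 fell in tendon and was not called in bursa), and lay below it for Mcam (log2 difference -1.94, SE 0.27, adjusted p = 1.3e-06 by edgeR), which fell in bursa and rose in tendon. These were 2 of 8 members, against 24.1% of all features (9.76% higher, 14.4% lower). At day 14 the bursa's change was lower than the tendon's for Tagln (-1.14, SE 0.31, adjusted p = 0.0036 by edgeR), Pdgfrb (-1.08, SE 0.21, adjusted p = 0.00013 by edgeR) and Mcam (-1.20, SE 0.27, adjusted p = 0.00063 by edgeR), against 34.8% of all features (15.5% higher, 19.3% lower). For Myh11 the difference between tissues was 0.46 at day 3 (95% interval -0.41 to 1.33) and 0.81 at day 14 (-0.06 to 1.68), neither called. The others not called at day 3 were Acta2 (-0.31, -0.93 to 0.31), Tagln (-0.35, -0.96 to 0.27), Cnn1 (0.23, -0.78 to 1.24), Notch3 (0.22, -0.29 to 0.74) and Pdgfrb (0.20, -0.22 to 0.63). At day 14 they were Acta2 (-0.26, -0.88 to 0.36), Cnn1 (0.15, -0.86 to 1.15), Rgs5 (-0.17, -0.57 to 0.24) and Notch3 (-0.05, -0.57 to 0.47).

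Ratios of 2 genes within a library are nearly free of its scaling. The log2 ratio of Acta2 to Myh11 was -0.68 ± 0.08 (SD, n = 5) in control bursa, 0.28 ± 0.50 in the day 3 bursa and -0.53 ± 0.11 in the day 14 bursa (n = 6 each). In tendon it was -0.40 ± 0.19 (n = 5) in controls, 1.26 ± 0.36 (n = 6) at day 3 in each arm, and at day 14 0.77 ± 0.19 with the bursa intact and 0.77 ± 0.30 with it removed (n = 6 each). No injured tendon overlapped a control tendon in this ratio. Over 33 ratio tests, 21 had an adjusted p under 0.05 by an exact two-sided permutation test. The smallest p this design allows is 0.0022, which adjusts to 0.0045, and each tendon comparison against control reached it for Acta2 over Myh11. In the bursa the day 3 shift of 0.97 had an exact permutation p of 0.0065 (adjusted 0.013), and the day 14 shift of 0.15 an exact permutation p of 0.017 (adjusted 0.029). Tagln over Myh11 went from -0.32 ± 0.22 (n = 5) in control tendon to 1.45 ± 0.35 at day 3 and 1.65 ± 0.20 at day 14 with the bursa intact (n = 6 each). Pdgfrb over Rgs5 went from -0.92 ± 0.25 (n = 5) in control tendon to 0.77 ± 0.11 and 0.60 ± 0.22 in the same groups (n = 6 each), and from -0.65 ± 0.45 (n = 5) in control bursa to 0.53 ± 0.31 at day 3 and 0.05 ± 0.24 at day 14 (n = 6 each). Removed and intact tendons differed in none of the 3 ratios at either day (differences -0.23 to 0.02, lowest exact permutation p 0.23, adjusted 0.32).

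**Figure D4:**
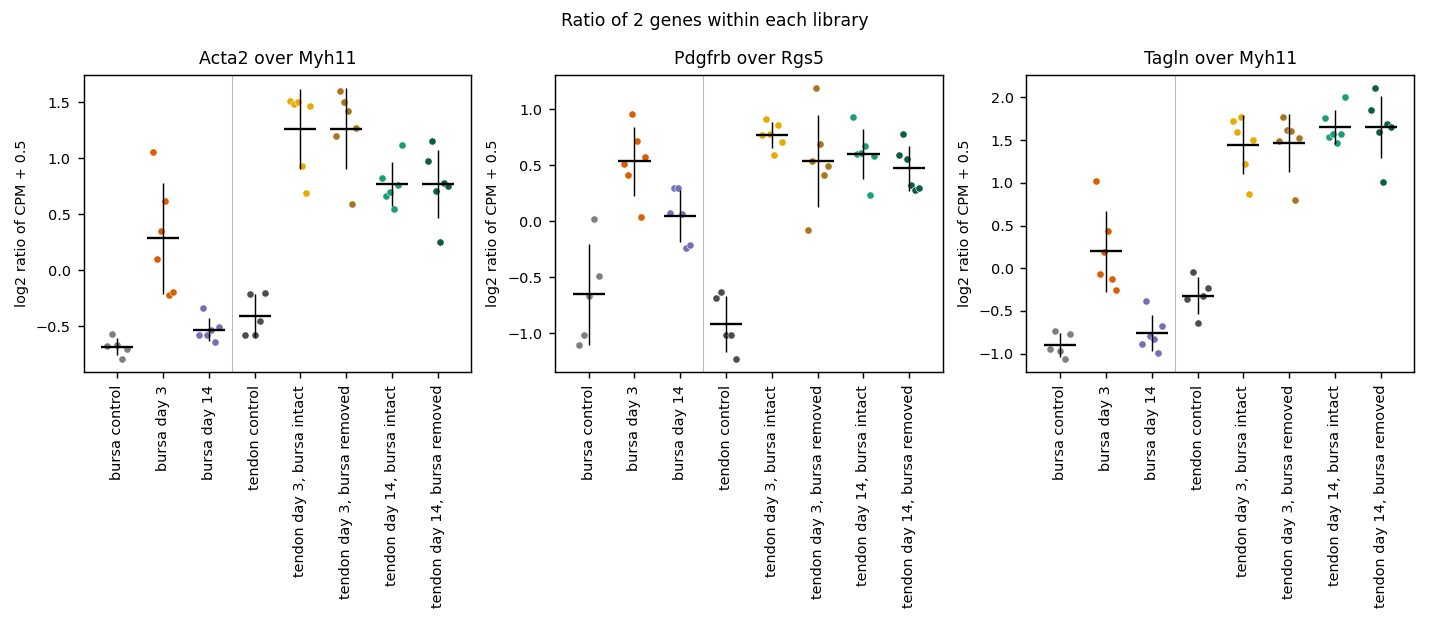
Log2 ratio of the CPM of 2 genes within each library (y axis, points), by group (x axis), with mean and SD. In all 3 panels every injured tendon lies above the highest control tendon, while the day 14 bursae return to -0.53 for Acta2 over Myh11, near the control mean of -0.68.

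Between libraries of 1 group, the contractile genes varied together. The correlation of log2 CPM deviations from group means was 0.81 to 0.96 over the 6 contractile pairs in 17 bursa libraries and 0.79 to 0.98 in 29 tendon libraries. It was 0.27 to 0.83 and 0.37 to 0.74 over the 6 mural pairs, and 0.32 to 0.76 and 0.43 to 0.76 over the 16 pairs of a contractile and a mural gene. These values are descriptions, since genes of a library share its dissection and scaling. Myh11, Pdgfrb and Mcam were each the sum of 2 transcripts. The lesser transcript of Pdgfrb held 18.0% ± 19.7 of its counts in control tendon (SD, n = 5, range 0.00 to 44.9%) and 36.4% ± 4.74 in day 14 tendon with the bursa intact (n = 6), and kallisto's division of reads between similar transcripts was not checked here.

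Genes whose levels followed a member most closely over all 46 libraries were sought among 8410 symbols with a mean of at least 10 CPM, by Pearson correlation of log2 CPM. They share the libraries, their groups and their scaling. For Myh11 these were Mylk, the kinase that phosphorylates myosin light chain (r = 0.970), Mrvi1 (0.964), Bcam (0.959), Gucy1a1, a subunit of the nitric oxide receptor (0.957), and Tinagl1 (0.955). For Acta2 they were Myl9, the smooth muscle myosin light chain (0.929), Tek, an endothelial receptor (0.857), Sorbs2 (0.854), Fryl (0.847) and Lrrc32 (0.847). Within tendon libraries alone Fryl was at 0.649, Sorbs2 at 0.661 and Tek at 0.726, and within bursa libraries alone Lrrc32 was at 0.625. Myl9 was at 0.978 within bursa and 0.878 within tendon libraries. For Rgs5 they were the water channel gene Aqp1 (0.893), Pawr (0.857), Eya2 (0.856), Sft2d2 (0.849) and Jcad (0.848), but within bursa libraries alone Jcad was at 0.332 and Eya2 at 0.478. For Pdgfrb they were Olfml2b (0.965), Selenon (0.959), Adgrl1 (0.952), the actin-binding Dbn1 (0.950) and Serinc5 (0.947). By Spearman correlation 4 of 5 were shared for Myh11 and Rgs5, 3 for Pdgfrb and 1 for Acta2.

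Other genes of the same programmes were read from lists. Of 24 smooth muscle and Srf programme genes, 17 were tested. In the day 3 bursa 10 fell and 1 rose (median log2 difference -0.83, all features -0.06), where 24% of all features were lower and 22.2% higher. Pln, which regulates the calcium pump, fell by 2.26 (SE 0.43, adjusted p = 0.00056 by edgeR), and Lmod1, an actin nucleator, by 1.60 (SE 0.23, adjusted p = 4.1e-05 by edgeR). In the day 3 tendon with the bursa intact 11 fell and 3 rose (median -1.26, all features -0.01; 33% of all features lower and 32.6% higher), led by Synpo2 (-3.38, SE 0.44, adjusted p = 2e-07 by edgeR), Pln (-3.03) and Lmod1 (-2.46). At day 14 with the bursa intact 9 fell and 4 rose (median -0.76, all features 0.02; 32.4% lower and 33.8% higher). Desmin (Des, -3.13, SE 0.34, adjusted p = 1.2e-08 by edgeR) led there. Des, Synpo2, Pln and Casq2 are also genes of striated muscle, and all 9 measured skeletal muscle genes fell in each tendon comparison with control (median -3.39 at day 3 and -3.11 at day 14 with the bursa intact). The part of skeletal muscle in these list counts was not tested. Myocd, the coactivator, fell in the day 3 bursa (-1.04, SE 0.22, adjusted p = 0.0012 by edgeR) and in the day 3 tendon (-1.37 with the bursa intact, SE 0.31, adjusted p = 0.00041 by edgeR), and was still lower in day 14 tendon (-0.76, adjusted p = 0.033 by edgeR). Srf was not called against control in any of the 6 comparisons (differences -0.27 to -0.18).

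Of 17 other pericyte and mural cell genes, 6 fell and 2 rose in the day 3 bursa (median -0.17, all features -0.06), and these 8 of 17 lie near the 46.3% of all features called. In the day 3 tendon with the bursa intact 10 fell and 3 rose (median -0.57, all features -0.01), where 65.6% of all features were called and 33% were lower. Gucy1a1 fell in both (-1.05 and -1.67), and Anpep, an aminopeptidase also found on fibroblasts, rose in both (1.41 and 1.56). In day 14 tendon 8 of the 17 fell and 4 rose in each arm. Their median was -0.59 with the bursa intact (all features 0.02) and -0.53 with it removed (all features 0.01). There 66.2% and 65.2% of all features were called, and 32.4% and 32.1% were lower. With the bursa intact Art3 (-2.31), Steap4 (-1.38) and Ndufa4l2 (-1.20) led the falls. Of the 18 genes of the Notch list, 7 fell and 2 rose in the day 3 bursa (median -0.25, all features -0.06; 46.3% of all features called) and 3 fell in the day 14 bursa (median -0.12, all features -0.05; 16.2% called). In tendon with the bursa intact 9 rose and 5 fell at day 3 (median 0.35, all features -0.01; 65.6% called), and 10 rose and 2 fell at day 14 (median 0.33, all features 0.02; 66.2% called). The number called in either direction was thus near the background in each of these comparisons. By direction, 24% of all features were lower and 22.2% higher in the day 3 bursa, and 6.86% were lower in the day 14 bursa. In tendon with the bursa intact 32.6% were higher and 33% lower at day 3, and 33.8% and 32.4% at day 14. The called genes of day 14 tendon lay mostly on the higher side, 10 against 2. In the day 3 bursa Hey2, a target of Notch, fell by 1.69 (SE 0.28, adjusted p = 0.00017 by edgeR). Heyl rose there by 0.37 (SE 0.12, adjusted p = 0.017 by edgeR), and Hey1 was not called (-0.01). In day 14 tendon with the bursa intact Hey1, another target, rose by 1.02 (SE 0.22, adjusted p = 0.00017 by edgeR) and the ligand gene Jag1 by 0.55 (SE 0.12, adjusted p = 0.00024 by edgeR), while Heyl (0.14, adjusted p = 0.47 by edgeR) and Notch3 itself were not called. Hes1 of the same list went the other way and fell by 1.01 (SE 0.16, adjusted p = 4.2e-06 by edgeR). Among ligands of the PDGF receptors, Pdgfb fell in the bursa at day 3 (-0.63, SE 0.10, adjusted p = 0.00012 by edgeR) and day 14 (-0.72, SE 0.10, adjusted p = 0.00043 by edgeR). It was not called in tendon at day 3 (0.05) or day 14 (-0.11) with the bursa intact. Pdgfd, which also binds the beta receptor, was lower in day 3 tendon (-0.60) and higher at day 14 (0.88, SE 0.16, adjusted p = 2.1e-05 by edgeR). Pdgfra, a fibroblast receptor, rose in day 3 bursa (1.33) and day 3 tendon (0.82) and was not called in day 14 tendon (-0.01).

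In the myofibroblast and TGF-beta list most genes rose. In the bursa 11 of 16 rose at day 3 and 9 at day 14, and in tendon with the bursa intact 12 rose at day 3 and 14 at day 14, none falling in these 4 comparisons (medians 1.28, 0.90, 1.53 and 1.58). The medians of all features there were -0.06, -0.05, -0.01 and 0.02, and 22.2%, 9.38%, 32.6% and 33.8% of all features were higher. With the bursa removed 12 rose and 3 fell at day 3 (30.8% of all features higher), and 14 rose at day 14 (33.2%). Cthrc1, a secreted protein of injury fibroblasts, was higher by 7.56 in day 14 tendon with the bursa intact (SE 0.26, adjusted p = 3e-18 by edgeR), Postn, a matrix protein, by 6.98 (SE 0.33, adjusted p = 1.6e-15 by edgeR), and Tgfb1 by 0.96 (SE 0.11, adjusted p = 1.8e-08 by edgeR).

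Beside the member results stand the markers of other cells. The 14 endothelial genes measured summed to 1515 to 2075 CPM in control bursa and 1663 to 2569 CPM in day 3 bursa, and to 793 to 1716 CPM in control tendon, 1066 to 1626 CPM at day 3 and 974 to 1141 CPM at day 14 with the bursa intact. Of these genes 3 rose and 4 fell in day 3 bursa, 4 rose and 5 fell in day 3 tendon, and 6 fell in day 14 tendon. In the day 3 bursa 46.3% of all features were called (22.2% higher, 24% lower). With the bursa intact the shares in tendon were 65.6% at day 3 (32.6% higher, 33% lower) and 66.2% at day 14 (33.8% higher, 32.4% lower). The numbers of endothelial genes called lay near or below these shares. Fibroblast and tendon cell genes (10 measured) summed to 13050 to 27540 CPM in control tendon and 85720 to 116300 CPM in day 14 tendon with the bursa intact, and to 1585 to 16190 CPM in control bursa and 38870 to 62310 CPM in day 3 bursa. Of these 6 rose and 1 fell in day 14 tendon, and 4 rose and 1 fell in day 3 bursa. The numbers called were again near the shares of all features. In day 3 tendon 4 of the 10 rose and 4 fell in each arm, against 65.6% of all features called with the bursa intact and 62.9% with it removed. The medians of the list were -0.06 and -0.26 (all features -0.01 and -0.02). Its summed level at day 3 with the bursa intact was 52530 to 79910 CPM. No gene of the endothelial or fibroblast list was at 0 in all libraries of a group. Macrophage genes (5 measured of 6) went from 127 to 427 CPM in control bursa to 845 to 1307 CPM at day 3 and 597.5 to 856 CPM at day 14, and from 127 to 248.6 CPM in control tendon to 578 to 775 CPM and 312 to 366 CPM at these days with the bursa intact. Of the 5 genes, 4 rose in day 3 bursa (median 2.03), 5 in day 3 tendon (2.38) and 3 in day 14 tendon (1.41). The 3 measured cell division genes rose in all 3 of these comparisons, from 2.40 to 7.74 CPM in control bursa to 81.1 to 205 CPM at day 3, and from at most 9.59 CPM in control tendon to 195 to 266 CPM at day 3 and 45.6 to 61.2 CPM at day 14.

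Markers of fat and nerve were lower in the day 3 bursa and in injured tendon of either day with the bursa intact. Adipocyte genes (5 measured of 7) summed to 5458 to 15870 CPM in control bursa, 1586 to 4473 CPM at day 3 and 4522 to 6758 CPM at day 14. In tendon they summed to 363 to 633.5 CPM in controls, 65.6 to 232 CPM at day 3 and 95.9 to 139.5 CPM at day 14 with the bursa intact, and 1 of them was at 0 in all control tendons. They fell in 4 of 5 tested in day 3 bursa (median -2.21) and in 4 of 4 tested in tendon of either day (-2.54 and -3.20). The 4 Schwann cell genes measured, of 5, summed to 541.5 to 1276 CPM in control bursa and 139 to 272 CPM at day 3, and to 194 to 348 CPM in control tendon, 22.1 to 45.3 CPM at day 3 and 58.5 to 84.8 CPM at day 14. All 4 fell in day 3 bursa and in intact-bursa tendon of either day. Of all features 24% were lower in day 3 bursa, and 33% and 32.4% in day 3 and day 14 tendon with the bursa intact. The part of all these cells in the Pdgfrb, Mcam and contractile results was not tested.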

How the data were processed

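RNA was sequenced from 46 rat bursa and tendon libraries. Per the submitters' processing notes, reads were handled with bcl2fastq 2.19, kallisto 0.44.0 and DESeq2. No version of DESeq2, no build and no annotation is named in the sources used here. The authors deposited estimated counts per transcript and 11 DESeq2 tables. These deposited tables hold the mean normalised signal (baseMean), log2 fold changes with standard errors, a Wald score, and p-values raw and adjusted. The deposited log2 fold change was found from the counts to be the second-named group over the first, and its sign was turned here.

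The transcript table holds no symbols, so transcripts were assigned to symbols by value: a symbol's means in the 11 tables had to equal those of 1 transcript, or of the sum of 2, within 0.5 counts or 0.2% (2% in a second pass). This named 13233 of 23747 symbols, 15681 of 31715 transcripts and 88.9 to 95.7% of each library's counts. Among the 12853 symbols whose mean reached 50, 90.9% were matched, and 0 of 4000 decoys were. Of the members, only Rgs5 was matched in the second, looser pass. Its means differed from the deposited ones by at most 0.38%, and those of the other members by at most 0.144%. Symbols not matched were not analysed here, nor were list genes such as Cald1, Tpm1, Tpm2, Kcnmb1, Actn1, Mrtfa and Pdgfa, or Pecam1. Transcripts without a symbol stayed in the fits as features of their own. Shares of all features therefore count single transcripts as well as named genes.

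Counts were rounded, filtered with filterByExpr, scaled by TMM and fitted with edgeR 4.0.16 (R 4.3.3) by the quasi-likelihood test, in 3 fits: 17 bursa libraries (16277 features), 29 tendon libraries (16337) and all 46 (17205). P-values were adjusted by Benjamini-Hochberg over all features, with a threshold of 0.05, and intervals are at 95%. Ratios used log2(CPM + 0.5) and exact permutation tests (SciPy 1.17.1, Python 3.11.15). Alternatives were DESeq2 1.42.0, other scalings, no filter, fits of only the compared groups, a replicate block, a skeletal muscle covariate and libraries left out. The reported fits and ratio tests leave libraries unpaired. The fits were tested on simulated data: of 100 planted 2-fold changes 65 were found in the bursa at day 3, 84 in tendon at day 3 and 81 between removed and intact tendon at day 14, and of 100 planted 4-fold changes 87, 90 and 91. With totals of 12425823 to 69947597 estimated counts, counting error was small beside the spread between libraries.

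All 8 members were to be named in each comparison. From each other list at most the 3 called genes with the largest difference were named, besides Pdgfb, Pdgfra, Jag1, Hey1, Heyl, Myocd, Srf and Tgfb1, which could be named whatever their value. Members and lists were chosen with earlier results of these data known. Same-numbered libraries deviated together between removed and intact tendon at day 14 (correlation 0.11 to 0.34 in 6 pairs) and between day 3 bursa and intact tendon (0.12 to 0.20), and were taken as paired there from the data; the labels do not say what a number marks. The block changed no member call in either. Between removed and intact tendon at day 3 the correlations ran from 0.05 to 0.43, and these libraries were not taken as paired. For the day 3 response of bursa against tendon it was added after the data were seen, as a block over these 12 libraries in the fit of all 46. Ratios were not tested in pairs.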

Additional observations from a re-analysis of the deposited data

Results flagged for a closer look

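In tendons with the bursa removed, library 5 of day 3 lay far above the other 5 for Cnn1 (31.1 CPM) and Myh11 (240.9 CPM), and library 5 of day 14 for Cnn1 (33.9 CPM). These were 3 of 64 groups checked for a far library, and chance gives about 1 in 20.

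The injury response differed between bursa and intact tendon in 5 cases by the test of the difference itself (edgeR). At day 3 the bursa's log2 change minus the tendon's was 0.77 for Rgs5 and -1.94 for Mcam. At day 14 it was -1.14 for Tagln, -1.08 for Pdgfrb and -1.20 for Mcam. These calls held under all 28 alternatives run at day 3 and all 27 at day 14.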

How the results depend on the processing

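Of 52 calls on the members, 28 held under every alternative run, and of 2488 values under alternatives none reversed a call, 85 lost one and 21 gained one. With the replicate block the members called were 3 in place of 6 in the day 3 bursa, where Acta2 (-0.77), Tagln (-0.65) and Mcam (-0.88) lost the call with adjusted p from 5.4e-05 to 0.11 over the alternatives (features 3934 for 7531), 0 for 1 in the day 14 bursa (Pdgfrb lost, 0.78; 221 for 2643) and 4 for 7 in the day 3 intact tendon (Acta2, -0.25, Cnn1, -0.71, and Notch3, -0.36, lost). It also ended the Cnn1 and Notch3 calls of day 3 tendon with the bursa removed (-0.71 and -0.29), and added Acta2 (0.32) and Cnn1 (0.54) between the days with the bursa removed; same-numbered libraries there share only a number, with correlations of -0.29 to 0.35. Between removed and intact tendon the block changed no member call, nor did the block added after seeing the data in the day 3 response (Rgs5 0.78, adjusted p = 0.0052, and Mcam -1.95, adjusted p = 3.7e-06 by edgeR; over the alternatives 0.00081 to 0.012 and 1.8e-10 to 7.2e-06). In the day 14 response same-numbered libraries did not all deviate together (0.02 to 0.18), and no block was fitted. With only the compared groups in the fit, the day 14 bursa had 0 members and 1556 features, and day 14 against day 3 bursa 2 members, as in the authors' deposited table (5602 features for 3518). DESeq2 called 2 members in the day 14 bursa, and 10 features at day 3 and 1 at day 14 between removed and intact tendon, where the authors' deposited tables had 82 and 2. With the muscle covariate, tendon against control had 2 members for 7 and 3451 features for 10709 (day 3 intact), 3 for 6 and 4333 for 10284 (day 3 removed), 1 for 4 and 4986 for 10823 (day 14 intact) and 2 for 4 and 5954 for 10659 (day 14 removed). Leaving out 1 library gave 0 to 2 members in the day 14 bursa (2 without control bursa 1, 0 without control bursa 2 or day 14 bursa 4), 4 to 6 in the day 3 bursa, 5 to 8 in day 3 intact and 4 to 7 in day 3 removed tendon, and 20 to 23 ratio tests for 21. The limits are few libraries, muscle in control tendon, control bursae 1 and 2, and symbols assigned by value.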
